A study of Mus musculus with 8 samples.

Results

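The 10 genes described here belong to the Notch pathway and were followed across 8 mouse microarrays: the receptors Notch1, Notch2, Notch3 and Notch4, the ligands Jag1 and Jag2, and the transcriptional targets Hes1, Hey1, Hey2 and Heyl. The genes were chosen by name, and 12 probes were assigned to them through their transcript accessions, among 20144 named genes and 39429 probes on the array. Notch1 and Notch2 had 2 probes each and the other 8 genes had 1, and each of the 10 had a signal well above background on 1 array or more.

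Each group was a single array of total RNA, labelled with Cy3, so no group had a replicate. The first 5 groups were liver cells, taken at embryonic days E11.5 and E13.5, then at E14.5, then at E17.5 and at P1 (postnatal day 1), dissociated with collagenase and sorted as positive for p75NTR (the neurotrophin receptor encoded by Ngfr) and negative for the leukocyte marker CD45 and the erythroid marker Ter119. The sixth was adult hepatic stellate cells (HSC, the pericytes of the sinusoid, which store vitamin A), sorted by their vitamin A and not by p75NTR. The cells from outside the liver were purified bone marrow mesenchymal stem cells (MSC) and mouse embryonic fibroblasts (MEF) cultured from embryonic skin. Strain, and whether animals were pooled for an array, are not given in the sources used here, and no genetic change or treatment is named for any group.

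Notch receptors are single-pass membrane proteins that bind ligands of the Delta and Jagged families on neighbouring cells. Binding exposes the receptor to cleavage, first by an ADAM protease and then by gamma-secretase, and the freed intracellular domain enters the nucleus and joins the DNA-binding protein Rbpj and a Mastermind coactivator. Hes and Hey genes are the best known direct targets and encode basic helix-loop-helix repressors. In the developing liver the pathway is known for bile duct formation, for which Jag1 in portal mesenchyme and Notch2 in hepatoblasts are needed, and in vessels Notch3 is the receptor of smooth muscle cells and pericytes while Notch4 is best known from endothelium.

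A level below is the log2 spot signal minus the log2 of that array's 75th percentile, so 0 is the 75th percentile and 1 unit is a 2-fold difference. Each array had 43020 non-control spots, of which 58.8% to 64.5% were well above background, and no spot was saturated. The 75th percentile signal was 243 to 414, and the spike-in dose slope was 0.849 on the E11.5 array against 0.922 to 0.933 on the others. Repeated spots of 1 probe within an array had a median SD of at most 0.0884 log2 units and a 95th percentile of at most 0.307, or 0.558 for probes at levels below -3. Neighbouring arrays closer than this are taken as not distinguished. It covers spot noise only, not differences between animals or preparations. The 4 fetal arrays lay on slide 1, and the P1, adult HSC, MSC and MEF arrays on slide 2.

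Stellate cell markers largely followed the labels. All 12 listed markers were well above background on all 6 liver arrays, with summed levels (multiples of the 75th percentile) of 136 to 1440, against 6 of 12 and a sum of 11.6 on the MSC array and 10 of 12 and 27.2 on the MEF array. Every liver array was above both others for 11 of the 12, against 12.8% of all genes. Ecm1 overlapped, at 4.02 to 8.15 on the liver arrays, against 3.48 on the MSC array and 4.37 on the MEF array. Lrat, which esterifies vitamin A, and Reln were not well above background on the MSC and MEF arrays. Ngfr, the gene for the sorted protein, lay at 3.24 to 6.42 on the liver arrays, against -5.73 on the MSC array and 1.37 on the MEF array. Transcripts of other liver cells were also present. The 9 hepatocyte markers summed to 4.62 to 1090 on the liver arrays, highest at E14.5, against 1.09 (MSC) and 0.907 (MEF), and the 8 erythroid markers to 11.7 to 134, highest at E17.5, against 2.71 (MSC) and 0.954 (MEF). The leukocyte markers summed to 0.423 to 1.56, against 2 (MSC) and 15.3 (MEF). Bile duct markers summed to 0.0529 to 2.28, against 2.96 (MSC) and 2.39 (MEF), and mesothelial markers to 0.482 to 22, against 7.15 (MSC) and 1.93 (MEF). The mesothelial markers went different ways. At E13.5, where their sum was 22, Wt1 was at 3.48 and Alcam at 3.37. Upk3b was at -2.03 there, Gpm6a at -3.15, Podxl at -3.39 and Msln at -4.10. On the MSC array Msln was at 2.83. In such bulk RNA, fewer cells of a type and less RNA per cell cannot be told apart.

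**Figure D1:**
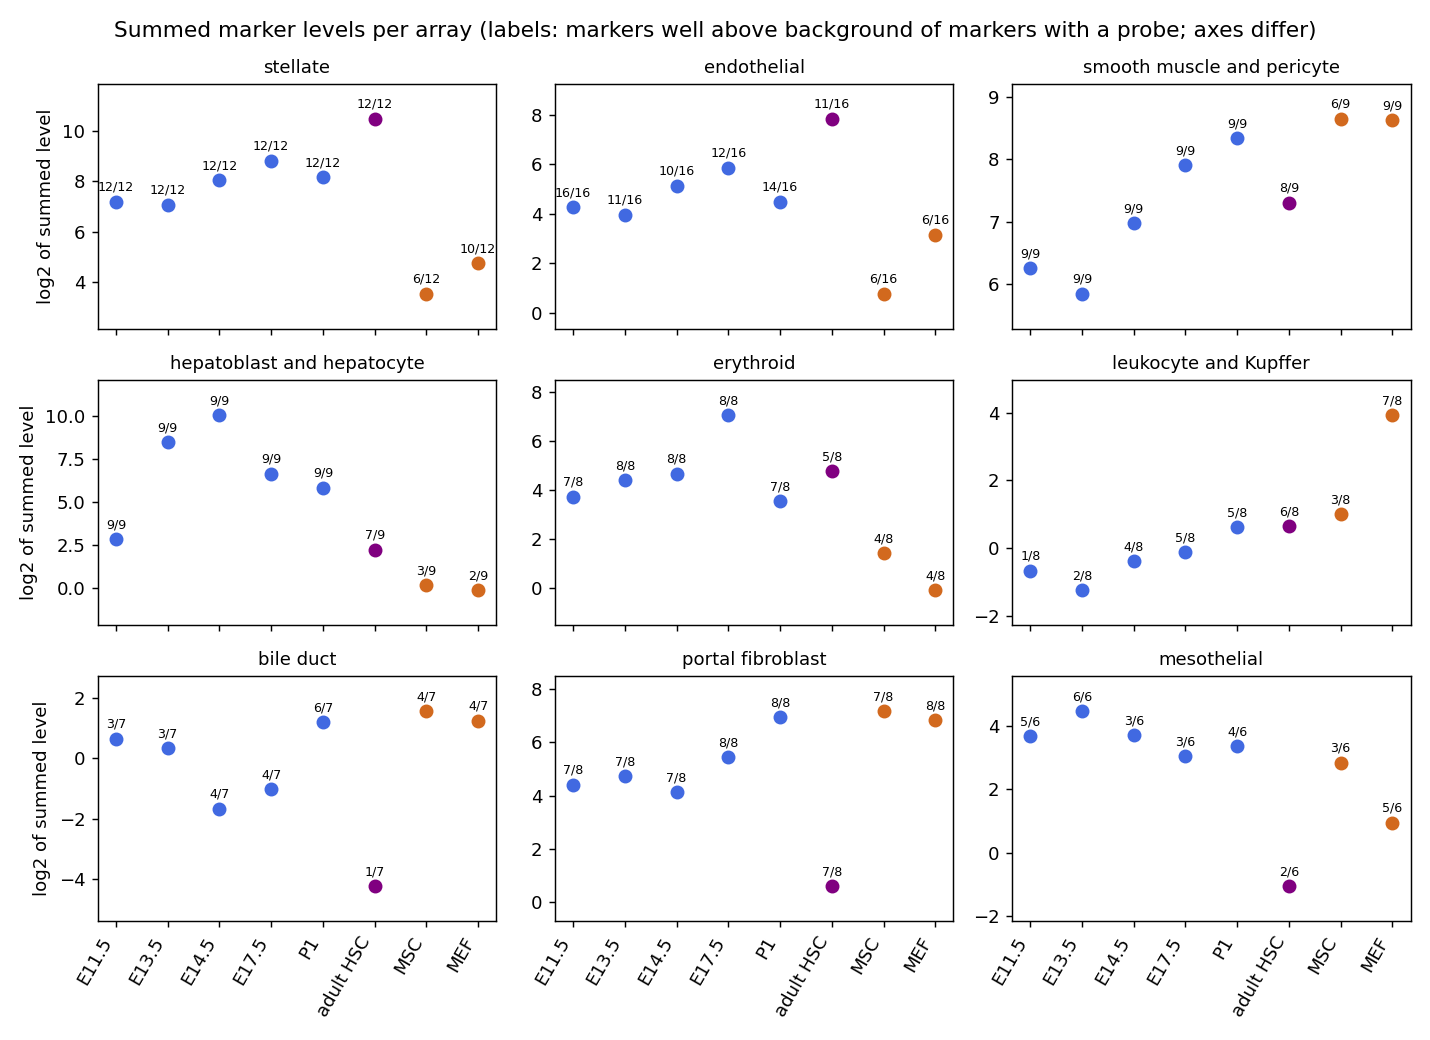
Log2 of the summed linear level of 9 lists of cell type markers (y axis, range differs between panels) on each of the 8 arrays (x axis), with the number of markers well above background over the number with a probe. Stellate markers were highest on the adult HSC array (sum 1440), and portal fibroblast markers stood far lower there (1.52) than on the P1 array (123).

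Among the receptors, Notch4 had the clearest difference between liver-derived and other cells. Its level was -0.61 at E11.5, -1.25 at E13.5, -0.97 at E14.5, 0.01 at E17.5 and -0.67 at P1, and 0.15 in adult HSC, against -3.84 in MSC and -3.99 in MEF. The 6 liver arrays stood above both other arrays with a gap of 2.59, and spanned less than that gap among themselves. Adult HSC and E17.5 were not distinguished at the top of the order, nor were MSC and MEF at the bottom.

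Notch3 had a different profile. Its level was 3.44 at E11.5, 3.05 at E13.5, 2.54 at E14.5, 3.97 at E17.5 and 4.20 at P1. In adult HSC it was 0.93, against -3.95 in MSC and 1.33 in MEF. The 5 p75NTR-sorted arrays were therefore all above MEF, adult HSC was 0.40 below MEF, and MSC lay 4.88 below the next lowest array. P1 and E17.5 were not distinguished from each other.

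Notch1 was lowest outside the liver. It stood at -3.43 at E11.5, -3.25 at E13.5, -2.83 at E14.5, -1.88 at E17.5 and -2.32 at P1, and at -2.00 in adult HSC, against -4.00 in MSC and -4.49 in MEF. The E17.5 and adult HSC arrays shared the top of the order within spot noise. At the dim end E13.5 was not distinguished from E11.5, nor MSC from MEF. A second Notch1 probe was well above background only on the adult HSC array, at -5.59.

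Notch2 varied least of the 4 receptors. The levels were 2.39 at E11.5, 1.80 at E13.5, 1.91 at E14.5, 2.07 at E17.5 and 1.63 at P1, and 1.30 in adult HSC, against 1.32 in MSC and 1.33 in MEF. Every step down the order from E17.5 to the lowest array was within spot noise. The second Notch2 probe was also highest at E11.5, at -3.49, and was not well above background on the adult HSC and MEF arrays.

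Jag1, a membrane-bound ligand of Notch receptors, stood at -0.07 at E11.5, 0.35 at E13.5, 1.01 at E14.5, 1.82 at E17.5 and 1.17 at P1. In adult HSC it was 1.45, against -1.48 in MSC and 0.77 in MEF. All 6 liver arrays were above MSC, but only 4 of 6 were above MEF. Jag2, the other Jagged ligand, was well above background only at E13.5 (-5.55) and P1 (-5.17), so its order over the remaining arrays cannot be read.

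All 4 Hes and Hey targets were higher on each liver array than on either array from outside the liver. Hes1 stood at -1.62 at E11.5, -2.10 at E13.5, -1.22 at E14.5, -0.99 at E17.5 and -0.83 at P1, and at 0.41 in adult HSC, against -5.17 in MSC and -2.91 in MEF. It was the 1 target whose top array was adult HSC, which lay 1.24 above the next array.

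Hey1 was 1.98 at E11.5, 0.75 at E13.5, 1.18 at E14.5, 1.32 at E17.5 and 1.35 at P1, and 0.32 in adult HSC, against -3.70 in MSC and -0.77 in MEF. The E14.5, E17.5 and P1 arrays followed each other within spot noise, E11.5 was above them and adult HSC was the lowest of the liver arrays. Heyl, reported in vascular smooth muscle, was 0.45 at E11.5, -0.30 at E13.5, 1.52 at E14.5, 2.63 at E17.5 and 3.06 at P1, and 2.90 in adult HSC, against a signal not well above background in MSC and -1.54 in MEF. P1, adult HSC and E17.5 formed its upper end, with steps within spot noise.

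Hey2 was -4.39 at E11.5, -4.84 at E13.5, -4.43 at E14.5, -2.98 at E17.5 and -3.30 at P1, and -3.87 in adult HSC, and it was not well above background in either MSC or MEF. E17.5 was its highest array, 0.32 above P1, which is within spot noise at this level. The Hey2 promoter is printed because it was the only one of the 7 members' promoters in the RefSeq promoters (build GRCm38.p6) that held the Rbpj recognition letters GTGGGAA, searched on both strands. The window runs from 250 bases before the start site to 50 bases after it, at chr10:30842734-30843033 on the minus strand, and capitals mark both matches.
Hey2 promoter: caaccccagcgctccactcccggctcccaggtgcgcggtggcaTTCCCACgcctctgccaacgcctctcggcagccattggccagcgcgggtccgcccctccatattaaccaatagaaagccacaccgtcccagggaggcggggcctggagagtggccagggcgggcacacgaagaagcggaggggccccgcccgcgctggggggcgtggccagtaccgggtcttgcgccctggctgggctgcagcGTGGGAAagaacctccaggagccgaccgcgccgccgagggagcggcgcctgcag
The match on the opposite strand begins 207 bases before the start site and the match on the gene's strand begins 4 bases before it. Of all 32851 promoters of that set, 6.38% held GTGGGAA on either strand, so a match is a description of the letters and not a shown binding site. The promoters of Notch1, Notch2, Notch3, Notch4, Jag1 and Jag2 held none in this window. Those of Hes1, Hey1 and Heyl were not in the set, so Hey2 was the only target searched.

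**Figure D2:**
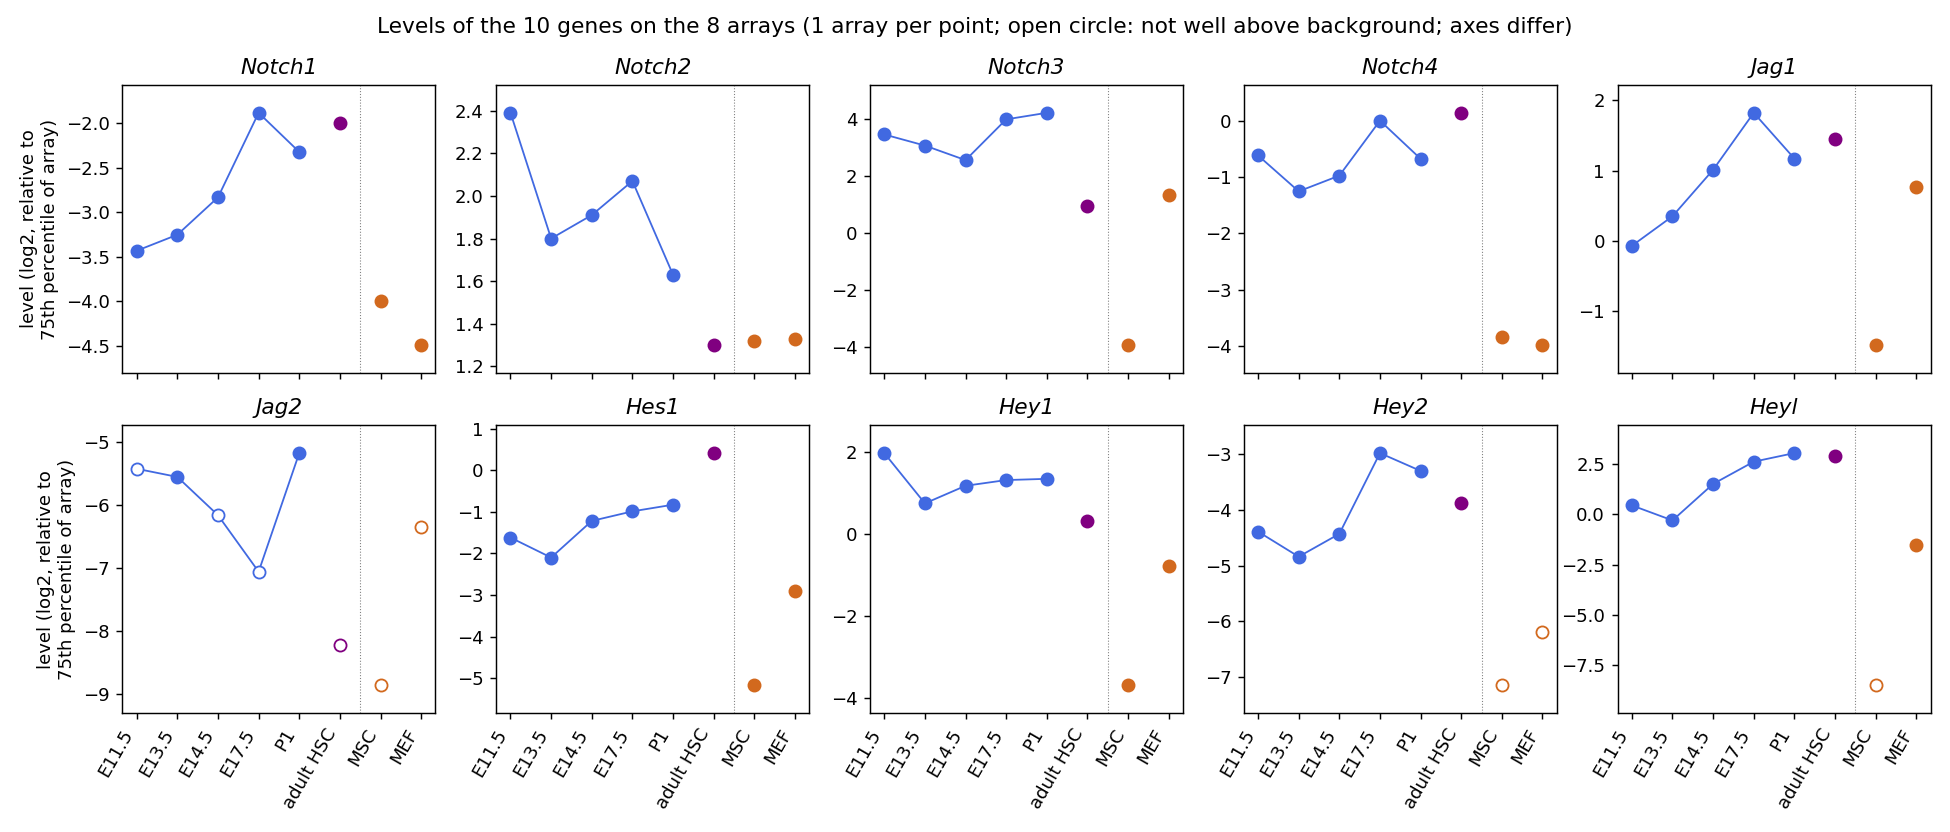
Level of each of the 10 genes (y axis, log2 relative to the array's 75th percentile, range differs between panels) on the 8 arrays (x axis), 1 array per point, with the 5 p75NTR-sorted stages joined by a line and open circles for signals not well above background. Notch4, Hes1, Hey1, Hey2, Heyl and Notch1 have all 6 liver arrays above the MSC and MEF arrays, while Notch3 in adult HSC (0.93) lies below MEF (1.33).

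The comparison of the 6 liver-derived arrays with the MSC and MEF arrays asks which of these transcripts differ between the liver-derived cells and mesenchyme from elsewhere. The MEF were cultured and the MSC were purified from bone marrow. Tissue of origin, culture and way of isolation therefore cannot be told apart in this comparison. Notch4 rose in the liver-derived cells and was the only 1 of the 10 genes to pass the test, limma with Benjamini-Hochberg adjustment over 16408 genes. Its mean was -0.56 in the liver-derived cells and -3.91 in the other cells, a difference of 3.36 ± 0.41 (SE) or 10.2-fold, with adjusted p = 0.0128. Among all genes tested 0.847% passed in this direction, and 0.731% in the other, in which no member passed. Since no array repeats another, the spread in this test is that between stages and cell types.

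None of the 4 targets passed the test, although each was higher on all 6 liver arrays. Heyl averaged 1.71 in the liver-derived cells and was at least 54.6-fold higher there, since 1 of the other 2 arrays, MSC, was not well above background. The fit on measured values gave an adjusted p of 0.115, and without the MSC array the difference was 3.25. Hey1 averaged 1.15 against -2.24, which is 3.39 ± 0.74 or 10.5-fold (adjusted p = 0.0765). Hey2 averaged -3.97 in the liver-derived cells and was at least 5.34-fold higher there, with adjusted p = 0.062 in the fit on measured values. Hes1 averaged -1.06 against -4.04, a difference of 2.98 ± 0.76 or 7.91-fold (adjusted p = 0.113).

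Of the remaining receptors, Notch3 averaged 3.02 in liver-derived cells and -1.31 in the others (difference 4.33 ± 1.36, adjusted p = 0.161), and the groups overlapped. Notch1 averaged -2.62 against -4.24 without overlap (difference 1.62 ± 0.48, adjusted p = 0.15). For Notch2 the difference was 0.53 ± 0.32 (adjusted p = 0.39). Jag1 differed by 1.31 ± 0.69 (adjusted p = 0.33), with overlapping groups. Jag2 was not well above background on 4 of 6 liver arrays or on either other array and is given no difference.

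By counts, 6 of the 10 genes had every liver array above both others, against 12.8% of all genes tested, and 7 of 10 had an unadjusted p under 0.05 in that direction, against 10.7%, with none in the other, against 8.9%. The median difference over the 10 genes as measured was 2.84, against 0.02 over all genes, and 2.98 over 9 genes with Hey2 and Heyl at their bounds and Jag2 left out. The differences changed with which of the MSC and MEF arrays was used. Without the MEF array they were 3.28 for Notch4, 6.97 for Notch3, 4.11 for Hes1 and 4.85 for Hey1. Hey2 and Heyl were then set against an MSC signal not well above background. Their differences are only bounds, at least 6.11-fold for Hey2 and at least 313-fold for Heyl. Without the MSC array the differences were 3.43 for Notch4, 1.69 for Notch3, 1.85 for Hes1, 1.92 for Hey1 and 3.25 for Heyl. In both of these fits the lone array outside the liver is assumed to vary like the liver arrays.

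Slide 1 held liver arrays only. With slide as a block, and equally within slide 2, the difference was 3.65 for Notch4, 2.08 for Notch1, 3.88 for Notch3, 3.83 for Hes1, 3.07 for Hey1, 1.67 for Jag1 and 0.14 for Notch2, and, as measured against signals partly at background, 3.08 for Hey2 and 8.02 for Heyl. The adjusted p of Notch4 was 0.0436 with the block and 0.472 on the 4 arrays of slide 2 alone. Another background correction (normexp) gave 2.10 and an adjusted p of 0.0867 for Notch4, which also ended the call. Over all settings the adjusted p of Notch4 ranged between 0.0095 and 0.472.

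Endothelial markers did not all go the way of Notch4 in the liver comparison. Every liver array was above both others for 10 of the 16, against 12.8% of all genes. By the test 3 passed as higher, against 0.847% of all genes. Pecam1, Kdr, Flt1, Flt4, Emcn and Erg overlapped. Of 16 markers 10 to 16 were well above background on the liver arrays, with summed levels of 15.7 to 232, against 6 of 16 on the MSC array (1.69) and 6 of 16 on the MEF array (8.87). On the adult HSC array, where the sum was 232, the plasmalemma vesicle gene Plvap was at 7.72, while the endothelial cadherin Cdh5 was at -3.97 and Flt4, Emcn, Erg, Sox17 and Sox18 were not well above background. On the E11.5 array all 16 were well above background. The part of endothelial RNA in the Notch4 difference was not tested. Smooth muscle and pericyte markers summed to 57.3 to 324 on the liver arrays, against 401 (MSC) and 397 (MEF), but the 9 members went different ways. Pdgfrb (difference 1.51) and the potassium channel subunits Kcnj8 and Abcc9 of pericytes were higher on every liver array, with both channel genes not well above background in MSC. Acta2 (-3.35) was lower on every liver array, as was the contractile gene Cnn1, and Myh11, Tagln, Cspg4 and Mcam overlapped. None of the 9 passed the test, and the part of such cells in the Notch3 and Heyl differences was not tested.

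**Figure D3:**
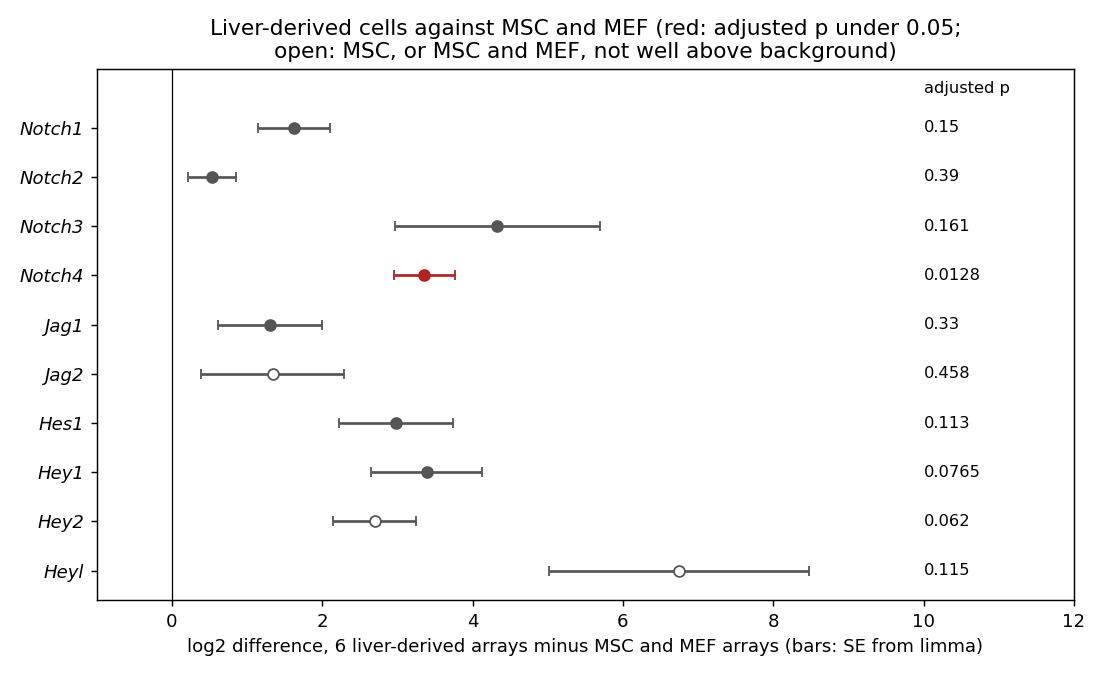
Log2 difference of each of the 10 genes (rows) between the 6 liver-derived arrays and the MSC and MEF arrays (x axis), with bars for the SE of limma and the p adjusted over all 16408 genes at the right. Notch4 (red, 3.36 ± 0.41) has the smallest error relative to its size, and the open points of Jag2, Hey2 and Heyl rest on MSC, or MSC and MEF, signals not well above background.

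Over the 5 p75NTR-sorted stages the question was whether a transcript had a steady trend before and just after birth. The stages were coded at equal steps, although the days between them differ. P1 was the only stage on slide 2, and E11.5 had the lower spike-in slope. Neither can be told apart from stage in these slopes. No member passed the slope test, nor did any other gene (0% of 15492 tested by limma at an adjusted p under 0.05, although 12.4% had a rising and 15.6% a falling slope at an unadjusted p under 0.05). Heyl had the steepest slope, 0.81 ± 0.18 log2 units per stage (adjusted p = 0.0885). Slopes of Jag1 and Hey2 were 0.40 ± 0.13 and 0.40 ± 0.15, that of Notch1 was 0.36 ± 0.10 and that of Hes1 was 0.27 ± 0.10, with adjusted p of 0.136, 0.174, 0.121 and 0.171 in that order. These 5 genes had an unadjusted p under 0.05, all with a rising slope. None of the 10 went the same way at all 4 steps, against 3.32% of all genes upward and 6.76% downward.

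The remaining slopes were small against their errors. They were 0.24 ± 0.17 for Notch3, 0.11 ± 0.14 for Notch4, -0.13 ± 0.08 for Notch2, -0.10 ± 0.22 for Jag2, which was not well above background at 3 of the 5 stages, and -0.07 ± 0.14 for Hey1. With normexp correction the slopes of Notch1 (-0.03), Notch4 (-0.02), Hey2 (-0.18), Notch2 (0.03) and Hey1 (0.01) changed sign, and without the E11.5 array that of Hey1 was 0.19.

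Between the ends of this series, P1 and E11.5, 4 of the 10 genes were at least 2-fold higher at P1, against 16.6% of all genes. None was 2-fold lower, so 4 of 10 were 2-fold apart in either direction, against 31.1% of all genes. This and the following pairs compare 1 array with 1 array and have no test. Heyl was 6.1-fold higher at P1 (3.06 against 0.45), Jag1 2.37-fold (1.17 against -0.07), Notch1 2.15-fold (-2.32 against -3.43) and Hey2 2.13-fold (-3.30 against -4.39). For Hes1 the difference was 0.79, for Notch3 0.76, for Notch4 -0.06, for Hey1 -0.64 and for Notch2 -0.76, and Jag2 was at least 0.19 log2 units higher at P1. The calls of Hey2 and Notch1 ended with normexp correction, at 0.02 and 0.42, and with array median scaling, at 0.91 and 0.92. These arrays lie on different slides, and slide, the lower spike-in slope of the E11.5 array and stage cannot be told apart in this pair. Smooth muscle and pericyte markers summed to 324 at P1 and 75.9 at E11.5, and portal fibroblast markers to 123 at P1 and 21.2 at E11.5. Their part in the 4 differences was not tested.

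Adult HSC and P1 cells differed most in Notch3, which was 9.65-fold lower in adult HSC (0.93 against 4.20). Hey1 was 2.04-fold lower in adult HSC (0.32 against 1.35), and Hes1 was 2.37-fold higher (0.41 against -0.83). These are 2 of 10 genes lower, against 21.8% of all genes, and 1 of 10 higher, against 13.6%. The other receptors differed by 0.32 (Notch1), -0.33 (Notch2) and 0.82 (Notch4), and the targets Hey2 and Heyl by -0.57 and -0.16. Jag1 differed by 0.28, and Jag2 was at least 0.77 log2 units lower in adult HSC. Scaling by the array median in place of the 75th percentile moved the median of all genes up by 0.79 in this pair. On that scale Hey1 (-0.24) was no longer 2-fold lower, as also with normexp (-0.92), Jag1 (1.07), Notch1 (1.11) and Notch4 (1.61) passed 2-fold, and Notch3 stayed 2-fold lower (-2.49).

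Stage and sort differ together in this pair and cannot be told apart. Beside Notch3, smooth muscle and pericyte markers summed to 157 in adult HSC and 324 at P1, with 2 of 9 at least 2-fold higher and 5 of 9 lower in adult HSC, and with Acta2 (smooth muscle actin) at -0.52 in adult HSC and 6.81 at P1 and Pdgfrb, the PDGF receptor of mural cells, at 4.65 in adult HSC and 3.92 at P1. Portal fibroblast markers summed to 1.52 in adult HSC and 123 at P1, with 7 of 8 and 8 of 8 well above background. The part of these cells in the Notch3 difference was not tested.

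The MSC and MEF arrays, which form 1 side of the liver comparison, stood far apart for 5 of the 8 genes that could be compared, all lower in MSC, against 22.6% of all genes. None was 2-fold higher, against 13%. Notch3 was 38.8-fold lower in MSC (-3.95 against 1.33), Hey1 7.62-fold (-3.70 against -0.77), Hes1 4.79-fold (-5.17 against -2.91), Jag1 4.77-fold (-1.48 against 0.77) and Heyl at least 32.9-fold. Notch1, Notch2 and Notch4 differed by 0.49, -0.01 and 0.15. Jag2 and Hey2 were not well above background on either array and have no fold. With normexp correction Hes1 differed by -0.60, which ended its call, and Notch3 by -3.58, which kept it.

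**Figure D4:**
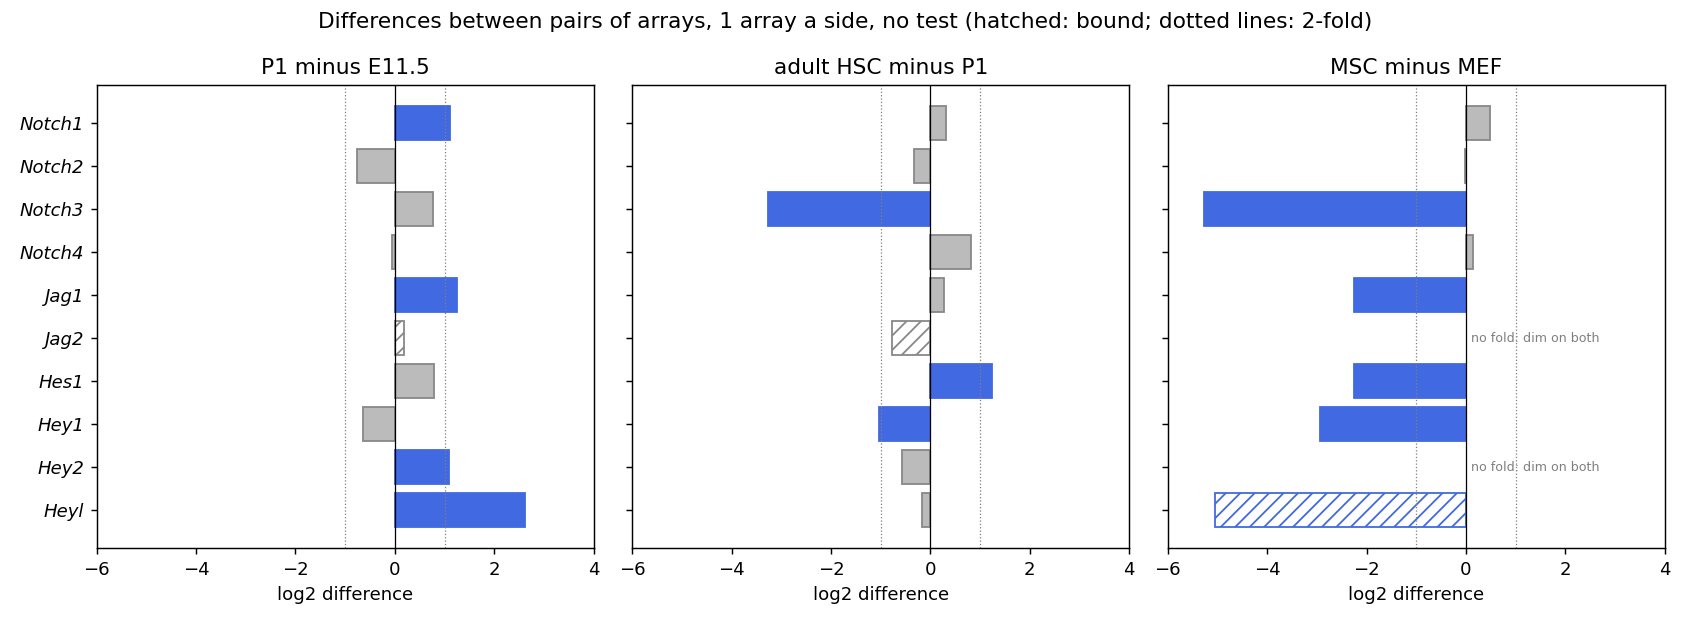
Log2 difference of each of the 10 genes (rows) in 3 pairs of single arrays (panels), blue where at least 2-fold and hatched where 1 side is not well above background and the bar is a bound. Notch3 has the longest measured bar in adult HSC minus P1 (-3.27) and in MSC minus MEF (-5.28), while Heyl (2.61) has it in P1 minus E11.5.

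The rest of the pathway was described from 52 further genes in 6 lists, of which 49 had a named probe and 48 were tested in the liver comparison. Among the 48, 1 passed as higher, against 0.847% of all genes: Maml3, a Mastermind coactivator of the Rbpj complex, rose in liver-derived cells, with a mean of 0.31 there and -2.12 in the others (difference 2.43 ± 0.43, 5.39-fold, adjusted p = 0.0433). The other 2 probes of Maml3 also had every liver array above MSC and MEF. None fell by the test. Every liver array was above both others for 10 of the 48 and below them for 1, against 12.8% and 10.4% of all genes, and the median difference was 0.29. Among the 14 genes of the nuclear complex and repressors the median was 0.19. Rbpj itself ranged over the liver arrays between 0.70 and 1.35, against 2.27 in MSC and 1.09 in MEF. Its second probe was highest at E11.5 (-0.98), with MSC at -1.18 and MEF at -2.11.

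Psen2, a catalytic subunit of gamma-secretase, averaged 2.42 in liver-derived cells and -0.33 in the others (difference 2.75 ± 0.81, adjusted p = 0.148). Lfng, a glycosyltransferase that modifies Notch receptors, averaged -5.04 in liver-derived cells and -2.30 in the others (difference -2.74 ± 1.14, adjusted p = 0.243), and was not well above background in adult HSC. Of 6 receptor maturation genes none passed in either direction, and the same held for 7 cleavage genes, 12 trafficking genes, 4 other ligands and 5 other targets and feedback genes.

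No further pathway gene passed the slope test over the stages. The steepest slopes with an unadjusted p under 0.05 included Nrarp, a feedback inhibitor induced by Notch (1.21 ± 0.39 per stage), and Dtx3l, a Deltex-family ubiquitin ligase (0.85 ± 0.16, adjusted p = 0.0777). Nrarp was not well above background at E11.5 and E13.5, stood at -5.04 at E14.5, -3.27 at E17.5 and -2.11 at P1, and was not well above background in adult HSC, MSC or MEF. It was at least 9.51-fold higher at P1 than at E11.5 and at least 14.3-fold lower in adult HSC than at P1. Hes5, another target, was at -1.19 at E11.5 and not well above background at E13.5. It then stood at -2.71 at E14.5, -2.52 at E17.5 and -2.82 at P1. In adult HSC it was at least 8.72-fold lower than at P1.

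Between adult HSC and P1, 5 of 48 pathway genes were at least 2-fold higher in adult HSC and 11 lower, close to the shares of all genes (13.6% and 21.8%). Dlk1, a Delta-like membrane protein that lacks the receptor-binding DSL domain, was at -5.72 in adult HSC, against 7.54 at P1, a difference of -13.26, and its second probe was at 5.94 at P1 and not well above background in adult HSC. Dll4, a Delta ligand best known from endothelium, was at -1.76 in adult HSC and not well above background at P1, at least 16.4-fold higher in adult HSC. Dtx1, a Deltex protein, was at least 50.1-fold lower in adult HSC than at P1, and Neurl1a, a ubiquitin ligase of the Neuralized family, was 47.5-fold lower. Between P1 and E11.5, 8 of 48 were 2-fold higher at P1 and 4 lower. Of all genes 16.6% were higher and 31.1% were 2-fold apart in either direction. Between MSC and MEF 3 of 47 were higher in MSC, against 13% of all genes, and 10 lower, against 22.6%.

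**Figure D5:**
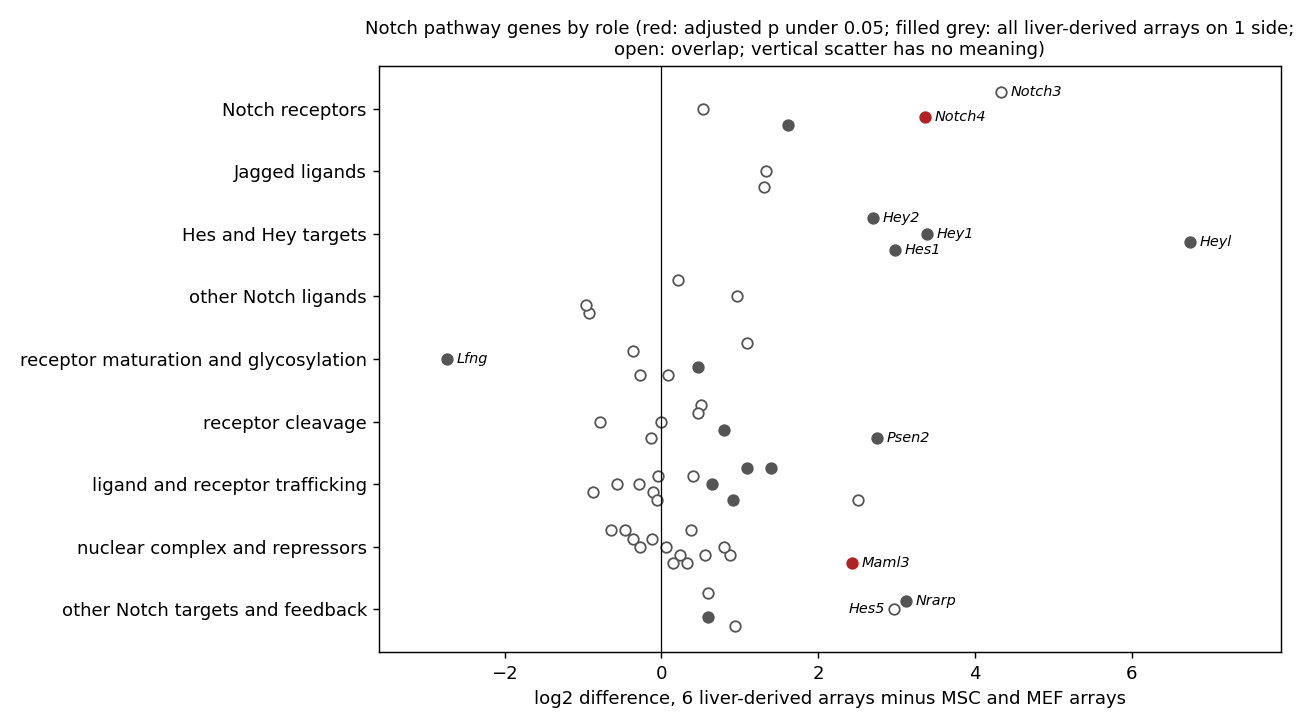
Log2 difference between the 6 liver-derived arrays and the MSC and MEF arrays (x axis) for the 10 genes and 48 further pathway genes, 1 point per gene, in rows by role. Notch4 and Maml3 (red) passed the adjusted threshold, and all 4 Hes and Hey targets lie above 2.5 as measured, Hey2 and Heyl against signals partly at background.

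Similarity of profile was measured as Pearson's r over the 8 arrays against 6585 genes that were well above background on at least 4 arrays and varied by at least 2 log2 units. The points share arrays and scaling and fall into few cell types, so the values are descriptions. Notch4 was most like Pcdh12 (0.987), Clk1 (0.986) and Maml3 (0.984). For Notch3 the nearest were Hvcn1 (0.986), Lpar1 (0.985) and Slc4a3 (0.985), and for Notch1 they were the immediate early and stress genes Egr1 (0.988), Ier2 (0.986) and Ppp1r15a (0.985). Notch2 was nearest to Map2k6 (0.93), Hand1 (0.927) and 4933403O08Rik (0.919). Jag1 was nearest to Tmem38a (0.985), Afap1 (0.982) and Septin8 (0.982).

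The targets had other nearest genes. They were Pced1b (0.995), Mpzl1 (0.989) and Naalad2 (0.988) for Hes1, and Hmcn1 (0.985), Trmt9b (0.985) and Popdc2 (0.978) for Hey1. Hey2 was nearest to Rnf122 (0.982), Mark1 (0.973) and Sik1 (0.972), and Heyl to Gng11 (0.992), Cd83 (0.987) and Klhl36 (0.987). Among the 10 genes themselves, Notch3 and Hey1 had an r of 0.96 over 8 arrays and 0.73 over the 6 liver arrays. Hes1 and Heyl had 0.96 and 0.83 over the same sets, and Notch1 and Jag1 had 0.71 and 0.97. Other pairs did not keep a positive r within the liver. Over the same sets Notch3 and Heyl had 0.87 and -0.06, Hey1 and Heyl 0.9 and -0.21, and Hes1 and Hey1 0.81 and -0.51. The 8-array values of Heyl include the MSC array, where it was not well above background.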

How the data were processed

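Total RNA of 8 samples was measured on one-colour Agilent arrays. The deposited intensity values are background-subtracted spot signals from Feature Extraction 11.5.1.1, per the file headers, with no scaling between arrays. The authors' deposited log2 table was used as an alternative; values computed here minus it had array medians between -0.103 and -0.15, and 93.2% (MSC), 96.7% (E14.5) or 100% of probes matched within 0.02 after that offset. Each group is 1 array, and precision is limited by their small number.

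Levels are log2 processed signal minus the array's 75th percentile over non-control spots. Outlier-flagged spots were dropped, spots of a probe averaged, and the probe with the highest mean taken per gene. RefSeq accessions (GRCm38.p6) named 67.4% of probes. The array design rests on mm9, so no probe or gene was placed on the genome, and the printed promoter has the coordinates of the RefSeq set. Both fits (liver-derived against other cells, and the slope over stages) were made with limma 3.58.1 under R 4.3.3. They took genes that 1 or more of the compared arrays showed well above background, with adjusted p under 0.05 as the threshold. The 3 pairs have no test and were called at 2-fold. Where 1 side was not well above background on all its arrays, the fold is a bound from the lowest signal well above background on the dim array or the dim probe's own signal, whichever was higher. The fits were also run on simulated levels with planted shifts and independent noise. Such levels do not have the differences between stages and cell types of these arrays, so the run says nothing about those.

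The members, lists and comparisons were chosen with earlier results of these data known. Named genes are the 10 members, pathway genes that passed a test or reached 2-fold in a pair, the 3 genes most like each member, and markers. The single marker genes given by name were chosen after their values were seen. Listed genes without a named probe are not analysed here. Alternatives were normexp (offset 50, on the median spot signal), array median and quantile scaling, the authors' table, a floor, other filters, the mean of all probes, limma's trend and robust options, slide as a block, slide 2 alone, only the p75NTR arrays, and each array left out.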

Additional observations from a re-analysis of the deposited data

How the results depend on the processing

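Genes called higher and lower in the liver comparison numbered 139 and 120. They were 36 and 15 with normexp, 43 and 31 with slide as a block, 0 and 0 on slide 2 alone by limma, where 883 and 563 had p under 0.05 before adjustment, and 324 and 200 with only the 5 p75NTR arrays, which leaves out adult HSC. With a filter on every array 67 were lower. The number of members called was 1, and 0 with normexp and on slide 2 alone. Leaving out each array in turn gave 43 to 794 higher, 39 to 484 lower and 1 to 6 members. The ends were reached without E17.5 (43 and 39) and without MEF (794, 484 and 6). Without MSC the counts were 57 and 184, without E13.5 they were 51 and 42, without E14.5 they were 46 and 43, and without P1 82 were higher. Notch4 was called in 19 of 21 settings.

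In the slope test the main counts were 0 and 0. Quantile scaling gave 79 rising and 28 falling, the filter on every array 366 and 291, and limma's trend and robust options 586 and 554, with no member called in any setting. Signs turned for slopes near 0. Under normexp they were 0.01 (Hey1), -0.18 (Hey2), -0.03 (Notch1), 0.03 (Notch2) and -0.02 (Notch4), and Jag2 had 0.01 with a floor. Leaving out arrays gave -0.16 to 0.19 for Hey1 and -0.55 to 0.05 for Jag2. The cause was not tested.

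For P1 minus E11.5 normexp gave 1331 genes higher and 1071 lower (2477 and 2166 in the main setting) and 2 members in place of 4, with Hey2 at 0.02, and array median scaling also 2. For adult HSC minus P1 normexp gave 1347 and 1630 (2040 and 3258) and Jag2 at -0.15. Array median scaling gave 5609 and 2093 there and 5 members in place of 3, the filter on every array 1799 lower, and the floor Jag2 at -0.77. For MSC minus MEF normexp gave 1170 and 1840 (1967 and 3432), with Hes1 at -0.60, Hey1 at -1.67, Heyl at -1.65 and Notch3 at -3.58. Array median scaling gave 5176 higher and 2432 lower, the filter 2061 lower, and the floor Heyl at -5.04. Array median scaling shifted the median of all genes by -0.37 in the liver comparison, -0.18 in P1 minus E11.5, 0.79 in adult HSC minus P1 and 0.61 in MSC minus MEF, quantile scaling by 0.14 in adult HSC minus P1, and normexp by 0.33 in the liver comparison.

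No paired analysis was possible because each group is 1 array and the labels carry no replicate numbers. Signals of Jag2, and of Hey2 and Heyl outside the liver, are limited by background.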
